A study of Mus musculus with 6 samples.

Results

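The interferon regulatory factors are a family of transcription factors that share an N-terminal DNA-binding domain and bind GAAA-containing elements in gene promoters. The members described here were taken by gene symbol, Irf1 to Irf5 and Irf7 to Irf9, and number 8 of the 19241 genes in a table of RNA-seq values from newborn mouse interscapular brown adipose tissue. All 8 were among the 13331 genes whose mean reached 0.5 FPKM (fragments scaled by transcript length and library size) over the libraries. The family was selected on the KO to WT difference of Irf4, already known from these data, so the difference between genotypes is given for its members as a description, with fold changes and standard errors. No p-value is given for a member, and the count of members past the threshold stands only beside the share of all genes.

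The total depot was sequenced in bulk from newborn mice of 2 genotypes. The 3 libraries called WT, also described as wild type, carry a floxed Fstl1 gene (Fstl1-floxed), and the 3 called KO are labelled Myf5-Fstl1 KO, a deletion of Fstl1 in the lineage marked by Myf5, a gene of muscle and brown fat precursors. The floxed allele is thus stated for WT, the labels name no driver line in WT, and nothing states whether a library comes from 1 animal or from pooled animals, so every p-value measures the spread between these libraries. In bulk tissue, fewer cells of a type and less RNA per cell cannot be told apart.

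In mammals the family divides by role. Irf3 and Irf7, and in myeloid cells Irf5, are activated downstream of sensors of microbial nucleic acid and switch on interferon genes. Irf9 joins STAT proteins to carry the signal of the type I interferon receptor, Irf1 is an activator of interferon-gamma responses, and Irf2 competes with Irf1 for the same elements. Irf8 and Irf4 act in blood cell differentiation with partners such as Spi1, the product of Irf8 being needed in myeloid cells and that of Irf4 in lymphocytes and plasma cells. In fat, Irf4 is also known as a gene induced by fasting through Foxo1 and kept low by insulin, and in brown fat its protein works with Pgc-1alpha (gene Ppargc1a) on thermogenic genes.

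As a check of the libraries, Fstl1 lay at 54.37 to 130.04 FPKM in WT, against 7.93 to 13.08 FPKM in KO. The Y-linked genes Eif2s3y, Ddx3y, Uty and Kdm5d lay between 7.39 and 99.31 FPKM in every KO library and at no more than 0.23 FPKM in any WT library, while Xist lay at 44.82 to 85.51 FPKM in WT and at most at 0.92 FPKM in KO. Sex and genotype therefore cannot be told apart in any comparison here. The 8 brown adipocyte markers summed to 22421 to 27762 FPKM in WT and 21507 to 23435 FPKM in KO, most of it Fabp4. Of these 8, the fold change was above 0 in 4 and below 0 in 4, where 51.6% of all tested genes were above 0, with a median of 0.03. Lpl was higher in all KO libraries (1224.79 to 1274.31 FPKM) than in any WT library (1092.7 to 1219.74 FPKM). Plin1, which coats lipid droplets, was the marker that passed and fell from 173.81, 309.34 and 253.85 FPKM to 106.01, 76.59 and 96.88 FPKM (by limma, a log2 fold change of -1.36, SE 0.22, adjusted p 0.0267). Skeletal muscle markers summed to 301 FPKM in KO replicate 1, against 1205 to 1754 FPKM in the other 5 libraries, and Ucp1 was lower in all KO libraries (1694.98 to 3591.5 FPKM) than in any WT library (4365.84 to 6255.31 FPKM). Steps between low values put the depth at an estimated 13900000 to 15150000 reads per library.

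The genes sit at separate loci of the mm10 genome, the build named in the submitters' processing notes (gene bounds from RefSeq, GRCm38.p6). Irf1 lies at chr11:53770014-53778374, Irf2 at chr8:46739745-46847458, Irf3 at chr7:44997648-45002848 and Irf4 at chr13:30749233-30766981, all on the plus strand. Irf5 lies at chr6:29526130-29541869, Irf8 at chr8:120736358-120756694 and Irf9 at chr14:55603985-55610030 on the plus strand, and Irf7 at chr7:141263183-141266499 on the minus strand. Irf5 overlaps Tnpo3, and Irf2 overlaps the predicted genes Gm31172 and Gm39170. Because the handling of strand is not given in the sources used here, reads in these overlaps cannot be assigned to one gene.

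The promoter windows of 3 members are shown because Irf4 had the widest range of levels in the family, Irf1 had no overlap between the groups, and Irf2 was the member whose window held IRF-type elements. RefSeq windows of 250 bases before to 50 after the start site (GRCm38.p6) were matched for all 8 members, 11 windows in all because Irf1, Irf8 and Irf9 have more than 1 start. The 3 windows are chr13:30748983-30749282 for Irf4, chr11:53769764-53770063 for Irf1 and chr8:46739495-46739794 for Irf2, each on the plus strand and written 5′ to 3′. Capitals mark the TATA box in Irf4, a STAT element in Irf1, and an ETS-IRF, an IRF and a STAT element in Irf2.
Irf4: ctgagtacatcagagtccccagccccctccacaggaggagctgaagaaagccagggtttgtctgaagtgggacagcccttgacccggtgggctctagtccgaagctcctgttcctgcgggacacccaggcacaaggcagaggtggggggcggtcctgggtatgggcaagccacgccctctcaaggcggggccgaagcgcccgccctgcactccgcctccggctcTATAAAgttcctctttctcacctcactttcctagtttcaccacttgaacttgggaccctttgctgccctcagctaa
Irf1: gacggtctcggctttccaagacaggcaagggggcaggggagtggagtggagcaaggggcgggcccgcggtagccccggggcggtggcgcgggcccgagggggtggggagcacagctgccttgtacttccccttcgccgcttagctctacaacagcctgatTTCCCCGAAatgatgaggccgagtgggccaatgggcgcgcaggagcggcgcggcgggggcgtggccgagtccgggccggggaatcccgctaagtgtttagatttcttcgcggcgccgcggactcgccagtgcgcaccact
Irf2: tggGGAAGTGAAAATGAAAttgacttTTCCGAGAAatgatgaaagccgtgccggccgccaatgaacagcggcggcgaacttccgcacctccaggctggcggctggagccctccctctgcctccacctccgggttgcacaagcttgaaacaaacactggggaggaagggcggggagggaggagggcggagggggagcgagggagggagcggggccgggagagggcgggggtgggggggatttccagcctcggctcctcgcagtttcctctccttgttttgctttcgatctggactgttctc

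Motifs were searched by their letters on both strands. The IRF element, GAAA and GAAA with 2 bases of any kind between them, was in 1 of the 11 windows, that of Irf2 at positions -241 to -232 from the start site, and in 3.44% of all 32851 windows of the same length. The ETS-IRF element, GGAA and GAAA with 2 bases of any kind between them, was in the same Irf2 window at -247 to -238, overlapping the IRF element, and in 2.72% of all windows. The STAT element, TTCNNNGAA, was in 3 of the 11 windows, of Irf1 (at -90 to -82), Irf2 (at -224 to -216) and Irf8, and in 8.3% of all windows. The TATA box, TATAAA, was in 3 of the 11, of Irf4 (at -26 to -21), Irf7 and Irf8, and in 13.6% of all windows. Letters for a FoxO element (TGTTTAC, 3.65% of all windows), an NF-kB element (GGGA and TTTCC around 1 base of any kind, 0.411%) and a glucocorticoid receptor element (GNACA and TGTNC around 3 bases of any kind, 0.475%) were in 0 of the 11. Each search took only the letters given, so looser forms of an element were not counted. A window without these letters, such as those of Irf1 and Irf2 for NF-kB, may still hold a variant of the site.

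Irf4 was the member that stood apart. WT replicates 1, 2 and 3 gave 1.08, 0.72 and 0.69 FPKM, whereas KO replicates 1, 2 and 3 gave 10.04, 17.95 and 198.99 FPKM. Every KO library was above every WT library, the lowest KO value being 9.3 times the highest WT value. The KO libraries also differed widely among themselves, with KO replicate 3 at 19.8 times KO replicate 1 and 11.1 times KO replicate 2. The WT mean was 0.83 ± 0.217 FPKM (SD, n = 3) and the KO mean 75.7 ± 106.9 FPKM (SD, n = 3), where the SD exceeds the mean. The fitted log2 fold change on log2(FPKM + 1) was 4.25 with a standard error of 0.87, and without KO replicate 3 it was 2.99.

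The depth behind Irf4 was sufficient to separate these values. On its longest matched transcript of 4764 nt, the lowest library held an estimated 48.8 reads and the highest 14071. By level, 11740 to 12681 of the 13331 tested genes were above Irf4 in the WT libraries, 6012 in KO replicate 1, 4020 in KO replicate 2 and 401 in KO replicate 3. KO replicate 3 of Irf4 was at 14.2 times the mean of KO replicates 1 and 2. With this value of Irf4 itself as the cut-off, 20 tested genes, Irf4 included, reached it. Irf4 was the only 1 of these among the 11700 tested genes with at least 1 FPKM in both KO replicates 1 and 2. By fitted rise from WT to KO, Irf4 ranked 3 among all tested genes. The Y-linked genes Eif2s3y (log2 fold change 6.50) and Ddx3y (5.83) stood above it. The family was selected on this difference, so nothing is read from the rank.

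**Figure D1:**
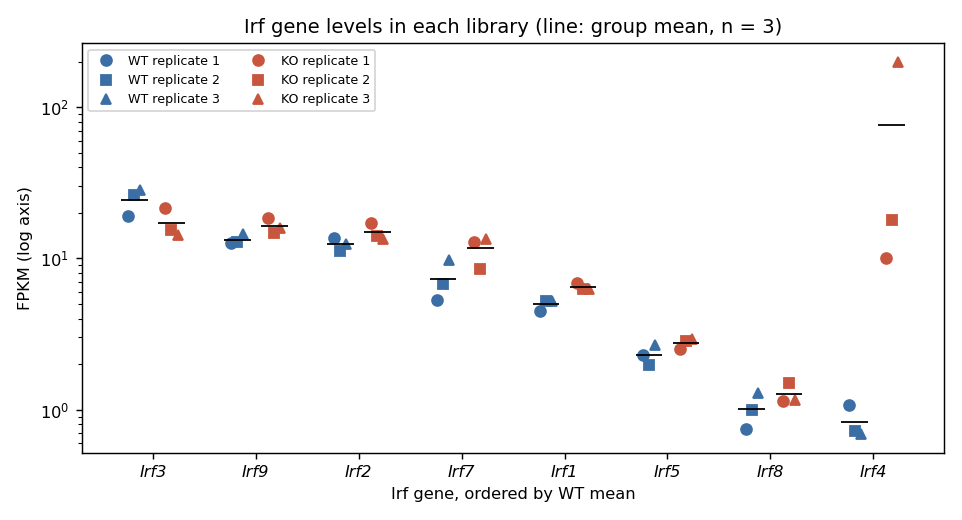
FPKM of each Irf gene (log axis) in the 3 WT (blue) and 3 KO (red) libraries, with the replicate shown by the symbol and the group mean as a line. The symbols of 7 genes lie close together within each group, while Irf4 runs from 0.69 FPKM in WT replicate 3 to 198.99 FPKM in KO replicate 3.

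Irf3 and Irf7, the factors that drive interferon genes, lay on opposite sides. Irf3 was at 19.06, 26.16 and 28.23 FPKM in WT, against 21.62, 15.49 and 14.24 FPKM in KO replicates 1, 2 and 3. The groups overlapped through WT replicate 1 and KO replicate 1, and the log2 fold change of -0.50 (SE 0.20) was the only negative one among the 8 members. Irf7 was at 5.32, 6.77 and 9.8 FPKM in WT, against 12.85, 8.53 and 13.52 FPKM in KO. Here KO replicate 2 fell below WT replicate 3, and the log2 fold change was 0.62 (SE 0.24).

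Irf5, the third factor that acts below the nucleic acid sensors, was low. It lay at 2.28, 1.96 and 2.66 FPKM in WT, against 2.53, 2.84 and 2.94 FPKM in KO, with overlap between WT replicate 3 and KO replicate 1. Its log2 fold change was 0.20 (SE 0.15).

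The factors that relay interferon signals, Irf9, Irf1 and Irf2, were close to each other in size of difference. Irf9, the DNA-binding subunit of the complex with STAT proteins, was at 12.64, 12.74 and 14.55 FPKM in WT, against 18.44, 14.73 and 15.94 FPKM in KO, without overlap (log2 fold change 0.28, SE 0.15). Irf1 was at 4.51, 5.22 and 5.2 FPKM in WT, against 6.84, 6.32 and 6.23 FPKM in KO, also without overlap (0.32, SE 0.14). Irf2, its competitor, was at 13.7, 11.23 and 12.42 FPKM in WT, against 17.27, 13.96 and 13.41 FPKM in KO, where WT replicate 1 lay above KO replicate 3 (0.24, SE 0.15). In KO the mean of Irf9 was 1.23 times, that of Irf1 1.30 times and that of Irf2 1.20 times the WT mean.

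Irf8, the myeloid factor, was at 0.74, 1.0 and 1.28 FPKM in WT, against 1.14, 1.49 and 1.15 FPKM in KO. The groups overlapped, and the log2 fold change was 0.18 (SE 0.16). It rests on an estimated 30.4 to 62.5 reads per library. Macrophage markers, which include genes such as C1qa, Cd163 and Csf1r, summed to 149.89 to 218.57 FPKM in WT and 207.92 to 286.01 FPKM in KO, so the ranges of the 2 groups overlapped.

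Of the 8 members, 1 passed an adjusted p of 0.05 in limma, Irf4, where 2.21% of all 13331 tested genes did. The groups did not overlap in 3 members, Irf1, Irf4 and Irf9, all higher in KO, where 13.6% of all tested genes were non-overlapping with KO higher and 24.9% in either direction. The fold change was above 0 in 7 of 8 members, against 51.6% of all tested genes, and the members' median was 0.26 against 0.01 over all tested genes. Because the family was chosen with this comparison in view, nothing is read from these counts.

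**Figure D2:**
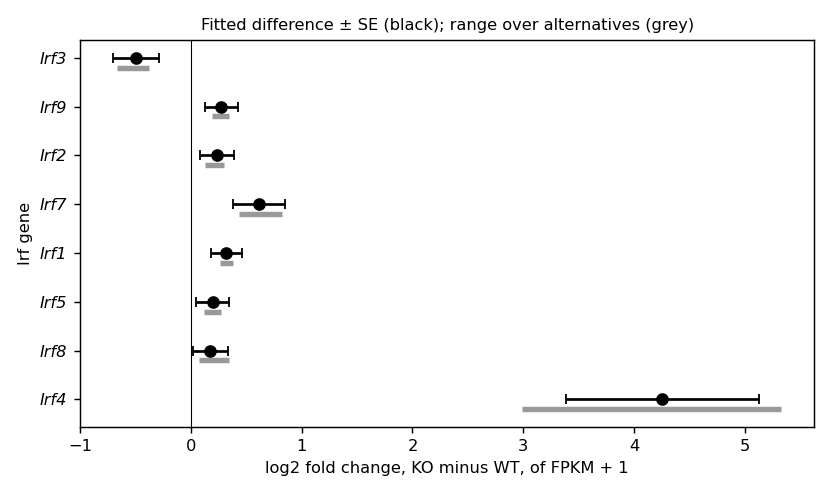
Fitted log2 fold change of FPKM + 1, KO minus WT, for each Irf gene, with its standard error (black) and the range over the 16 alternative analyses, or 15 for Irf5 and Irf8, which the stricter filter removes (grey). Irf4 lies at 4.25 with a range of 2.99 to 5.33, Irf3 at -0.50, and the other 6 between 0.18 and 0.62.

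In WT, the order of the mean levels was Irf3 (24.5 FPKM), Irf9 (13.3), Irf2 (12.5), Irf7 (7.30), Irf1 (4.98), Irf5 (2.30), Irf8 (1.01) and Irf4 (0.83). FPKM are scaled by transcript length, which allows only a rough comparison between genes. Reads in the overlaps of Irf2 and Irf5 with other genes cannot be assigned to a single gene. The ranges of neighbours overlapped for Irf9 with Irf2 and for Irf8 with Irf4, and were separate for the other 5 pairs. In KO, Irf4 stood highest by its mean, but its range overlapped that of Irf3. Irf3, Irf9, Irf2 and Irf7 (means of 17.1, 16.4, 14.9 and 11.6 FPKM) overlapped their neighbours in order, while Irf1 (6.46), Irf5 (2.77) and Irf8 (1.26) kept separate ranges.

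The make-up of the family's transcripts differed accordingly. The 8 genes together summed to 59.33, 65.8 and 74.83 FPKM in WT and to 90.73, 81.31 and 266.42 FPKM in KO. Irf4 made up 0.922% to 1.82% of that sum in WT, and 11.1%, 22.1% and 74.7% in KO replicates 1, 2 and 3. Without Irf4 the sums were 58.25 to 74.14 FPKM in WT and 63.36 to 80.69 FPKM in KO, so the 2 groups overlapped.

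**Figure D3:**
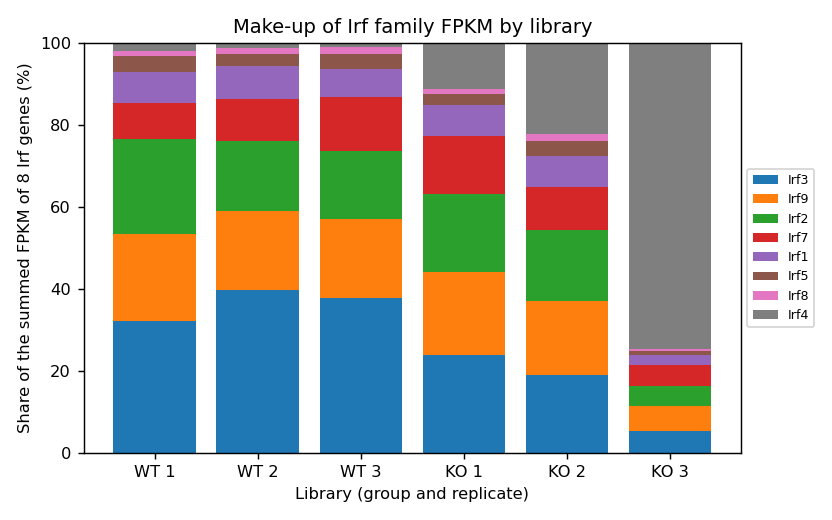
Share of the summed FPKM of the 8 Irf genes held by each gene, in percent, for the 6 libraries. The grey segment, Irf4, is at most 1.82% in WT and reaches 74.7% in KO replicate 3, while Irf3, Irf9, Irf2 and Irf7 hold most of the sum in WT.

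Irf4 is also known to be expressed in blood and pigment cells, whose markers are given here for all libraries. B and plasma cell markers (12 genes) summed to 5.07 to 6.82 FPKM in WT and 6.24 to 8.2 FPKM in KO, most of it Sdc1, which other cells express too. In KO replicate 3, the library with the highest Irf4, that sum was 6.24 FPKM. Single markers, all low, went both ways. Jchain (0 to 0.14 FPKM in WT, 0.24 to 0.77 FPKM in KO) was higher in every KO library than in any WT library. So was Cd79a (0.26 to 0.27 FPKM in WT, 0.28 to 0.68 FPKM in KO). Ms4a1 was at 0.03 FPKM in KO replicate 3, below every WT library (0.07 to 0.33 FPKM). Pax5 was at 0.06 FPKM there, and Tnfrsf17 and Vpreb1 were listed at 0. T and NK cell markers (9 genes) summed to 1.62 to 2.17 FPKM in WT and 1.48 to 2.18 FPKM in KO, and were lowest in KO replicate 3. Dendritic cell markers (8 genes) summed to 10.84 to 11.51 FPKM in WT and 8.8 to 10.6 FPKM in KO, again lowest in KO replicate 3. Most of that sum was Zbtb46, and the 2 tested markers went opposite ways. Zbtb46 was at 8.51 to 9.91 FPKM in WT and at 5.2 FPKM in KO replicate 3. Clec9a was at 0.99 to 2.43 FPKM in WT and at 3.27 FPKM in KO replicate 3. The 4 melanocyte markers in the table (Dct, Tyr, Pmel and Sox10) summed to 1.51 to 2.22 FPKM in WT and 1.71 to 2.24 FPKM in KO, with 1.71 FPKM in KO replicate 3. Neutrophil markers (9 genes, led by S100a8 and S100a9) summed to 138.55 to 214.54 FPKM in WT and 158.37 to 375.01 FPKM in KO, with 158.37 FPKM in KO replicate 3. Macrophage markers, given above, were at 265.89 FPKM in KO replicate 3, above every WT library and below KO replicate 2 (286.01 FPKM). The part of any of these cells in the level of Irf4 was not tested. Endothelial markers (6 genes) summed to 459 to 602 FPKM in WT and 466 to 520 FPKM in KO, and erythroid markers (6 genes) to 1489 to 6437 FPKM in WT and 1339 to 1887 FPKM in KO.

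The genes most like Irf4 were sought among 12131 tested genes whose mean reached 1 FPKM, by the Pearson correlation of log2(FPKM + 1) over the 6 libraries. Among the 5 highest were 2810013P06Rik (r = 0.997), the microRNA gene Mir568 (0.997), Slc25a27 (0.995) and Zfp784 (0.995), and 130 genes exceeded 0.95. These correlations describe 6 points that share the split between genotypes and 1 library far from the rest. 2810013P06Rik, a long non-coding RNA gene, was at 7.98, 7.06 and 7.22 FPKM in WT, against 14.3, 15 and 34.68 FPKM in KO. Slc25a27, a mitochondrial carrier gene, spanned a much smaller range, with 1.43 to 1.52 FPKM in WT and 1.81 to 2.49 FPKM in KO. The values of Mir568, a feature of 83 nt listed at 0 in all WT libraries, rest on about 12.7 reads in KO replicate 3. The 5 genes most like Irf7 were Mocs1 (r = 0.987), Cerk (0.984), Aifm2 (0.980), Hdac5 (0.979) and Clk3 (0.978), and 33 genes exceeded 0.95.

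Among the members themselves, the highest correlations over the 6 libraries were those of Irf7 with Irf9 (r = 0.90), Irf1 with Irf9 (0.88) and Irf1 with Irf7 (0.83). Irf4 correlated with Irf5 at 0.74, with Irf1 and with Irf7 at 0.70, and at -0.83 with Irf3. These are descriptions over 6 libraries from 2 genotypes.

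Around the family, 8 lists of pathway genes held 141 genes in the table, of which 132 were tested. Of these, 10 passed an adjusted p of 0.05 in limma (7.58%, against 2.21% of all tested genes), 9 higher and 1 lower in KO. Without WT replicate 2 and without WT replicate 3, 0 of them passed, in fits where 39 and 31 genes of the whole table passed. The calls were Ifngr1, Gbp6, Iigp1, Irf2bp2, Per1, Tsc22d3, Klf15, Fbxo32 and Sesn1 (higher) and Elovl3 (lower). Without KO replicate 1 the genes that passed were Ifngr1, Elovl3, Tsc22d3 and Prdm16, and without KO replicate 3 they were Ifngr1, Elovl3, Klf15 and Per1. Without KO replicate 2, 11 passed, among them the interferon-stimulated genes Ifit3, Mx1 and Ifi204, and Irf2bp2, Fbxo32, Tsc22d3 and Sesn1 did not. In the fits without KO replicate 1, 2 or 3, 121, 89 and 87 genes of the whole table passed.

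Few transcripts of interferons were found. Of the 9 interferon genes listed, Ifng and Ifne were in the table, at no more than 0.12 and 0.54 FPKM, and neither was tested. Among the receptors and the JAK-STAT chain, 14 genes were tested and 1 passed, where 2.21% of all tested genes did. Ifngr1, the ligand-binding chain of the interferon-gamma receptor, rose from 73.25, 73.02 and 66.83 FPKM in WT to 150.23, 133.63 and 167.3 FPKM in KO (by limma, a log2 fold change of 1.07, SE 0.14, adjusted p 0.0149). Its partner Ifngr2 lay at 15.47 to 16.28 FPKM in WT and 11.15 to 19.79 FPKM in KO. Stat2 lay at 6.6 to 8.28 FPKM in WT and 8.14 to 10.57 FPKM in KO. The median log2 fold change of the list was 0.12, against 0.01 over all tested genes.

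Of 19 tested sensors, adaptors and kinases upstream of Irf3, Irf5 and Irf7, 0 passed, and 8 had an unadjusted p under 0.05 (6 higher, 2 lower), where 19.2% of all tested genes did (10.6% higher, 8.6% lower). The smallest p-values were those of Tlr7 (1.45, 1.15 and 1.02 FPKM in WT, 2.47, 2.28 and 3.06 FPKM in KO; by limma, a log2 fold change of 0.71, adjusted p 0.0565), Tlr8 (0.70, adjusted p 0.0868) and Tbk1 (0.54, adjusted p 0.0969). Tlr7 and Tlr8 encode endosomal receptors for RNA and lie on the X chromosome, and Tbk1 is the kinase that phosphorylates Irf3. In each of the 3 genes every KO library was above every WT library, but they were picked by p-value, so nothing is read from that. Over the 19 tested genes, 7 were higher and 2 lower in KO without overlap. The shares of all tested genes were 13.6% and 11.4%. Mavs, the mitochondrial adaptor of the cytosolic RNA sensors, lay lower in all KO libraries (6.27 to 8.62 FPKM) than in any WT library (8.74 to 14.21 FPKM; log2 fold change -0.54, adjusted p 0.192). The median of the list was 0.23.

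Type I interferon-stimulated genes, the targets of the Irf9 complex, did not pass in any of 35 tested cases. By limma, 10 had an unadjusted p under 0.05, all higher in KO, where 10.6% of all tested genes did in that direction. The median log2 fold change was 0.37, and 32 of 35 were above 0, against 51.6% of all tested genes. The smallest p-values were those of Ifi204 (14.72, 14.75 and 11.74 FPKM in WT, 29.28, 19.68 and 39.56 FPKM in KO; by limma, a log2 fold change of 1.0, adjusted p 0.0644), Ifit1 (2.32, 1.5 and 2.7 FPKM in WT, 10.45, 4.09 and 5.57 FPKM in KO; 1.21, adjusted p 0.0672) and Ifit3 (1.10, adjusted p 0.102). Isg15, by contrast, lay at 4.78 to 11.61 FPKM in WT and 5.14 to 10.56 FPKM in KO (0.08, adjusted p 0.921). The mean deviation of the list from its average over the libraries was 0.39 in KO replicate 1 and 0.36 in KO replicate 3, but -0.14 in KO replicate 2, between WT replicate 2 (-0.19) and WT replicate 3 (-0.09). KO replicate 2 was also the KO library with the lowest Irf7 and Irf9.

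Of 31 tested interferon-gamma and Irf1 target genes, 2 passed, both higher in KO, where 1.21% of all tested genes did. By limma, 16 had an unadjusted p under 0.05 (14 higher, 2 lower), where 19.2% of all tested genes did. The fold change was above 0 in 26, against 51.6% of all tested genes, with a median of 0.37. Iigp1, an interferon-inducible GTPase gene, rose from 7.7, 5.03 and 5.48 FPKM to 19.11, 10.73 and 19.27 FPKM (by limma, a log2 fold change of 1.27, SE 0.24, adjusted p 0.0405). Gbp6, a guanylate-binding protein gene, rose from 3.43, 3.29 and 2.74 FPKM to 7.93, 5.2 and 7.55 FPKM (0.91, SE 0.18, adjusted p 0.0423). Both belong to families with close copies, between which short reads may be split. Cxcl10 (0.99, adjusted p 0.0764) and the class I genes B2m (0.52, adjusted p 0.108) and H2-K1 (0.64, adjusted p 0.115) were higher, without overlap, in the KO libraries and did not pass. Class II genes of the list differed in sign, and none passed. H2-Eb1 was lower in all KO libraries (0.63 to 1.08 FPKM) than in any WT library (1.36 to 2.13 FPKM). Its value by limma was -0.52 (adjusted p 0.151). H2-Ab1 (0.42, adjusted p 0.296) and H2-Aa (0.15, adjusted p 0.802) lay above 0 by limma, with overlap between the groups. All 12 macrophage markers had a fold change above 0 (median 0.35), 0 passed, and in 5 the groups did not overlap, where 51.6% of all tested genes were above 0 and 13.6% did not overlap with KO higher. Their part in the values of the interferon lists was not tested.

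Among 7 tested partners and corepressors of the family, 1 passed, where 2.21% of all tested genes did. Irf2bp2, which encodes a corepressor that binds Irf2, rose from 15.2, 12.37 and 10.87 FPKM to 21.13, 25.45 and 33.16 FPKM (by limma, a log2 fold change of 0.99, SE 0.20, adjusted p 0.0423), and was highest in KO replicate 3. Its relatives differed in sign: Irf2bp1 lay at 6.43 to 7.93 FPKM in WT and 4.22 to 5.67 FPKM in KO (-0.44, adjusted p 0.184), and Irf2bpl at 3.07 to 4.15 FPKM and 3.83 to 4.82 FPKM (0.24, adjusted p 0.438). Spi1, the partner of Irf4 and Irf8 in blood cells, lay at 3.58 to 6.14 FPKM in WT and 6.05 to 7.19 FPKM in KO. Batf lay at no more than 0.62 FPKM and Spib at no more than 0.35 FPKM in any library. The median of the list was 0.12.

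**Figure D4:**
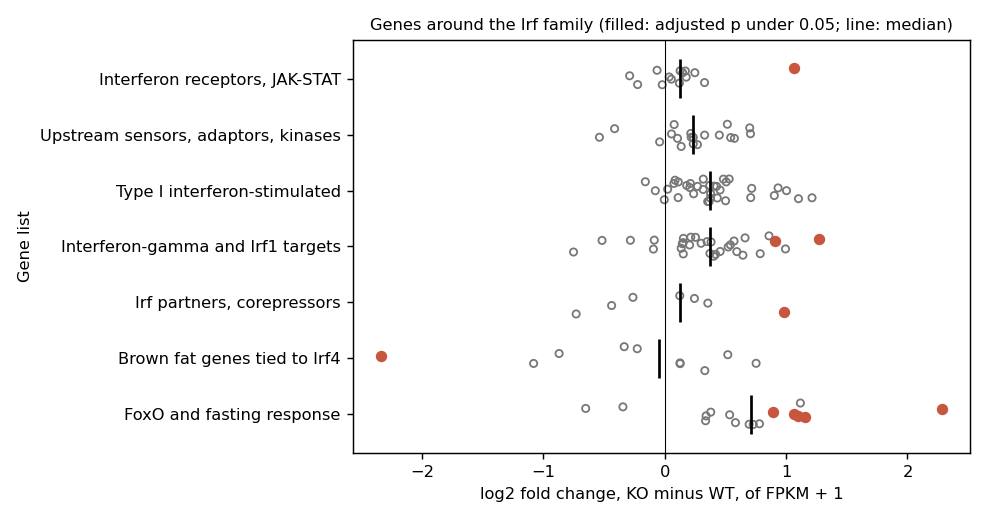
Log2 fold change of FPKM + 1, KO minus WT, for each tested gene of 7 lists around the Irf family (points), with the list median as a line and genes past an adjusted p of 0.05 filled. The medians run from -0.05 for the brown fat genes tied to Irf4 to 0.71 for the FoxO and fasting list, which holds 5 of the 10 filled points.

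Of 10 tested brown fat genes tied to Irf4, 1 passed, in the lower direction, where 1.01% of all tested genes did. Elovl3, a fatty acid elongase gene of active brown fat, fell from 18.77, 23.58 and 25.85 FPKM to 4.67, 1.69 and 5.65 FPKM (by limma, a log2 fold change of -2.34, SE 0.31, adjusted p 0.0151). Ppargc1a, the coactivator gene paired with Irf4 in brown fat, lay at 22.01, 20.78 and 14.59 FPKM in WT, against 27.4, 20.96 and 35.88 FPKM in KO, highest in KO replicate 3 (0.52, adjusted p 0.251). Foxo1 lay at 21.62 to 28.13 FPKM in WT and 23.14 to 31.36 FPKM in KO (0.13, adjusted p 0.743). Prdm16 (-0.87, adjusted p 0.0519) and Ucp1 (-1.08, adjusted p 0.0804) were lower, without overlap, in the KO libraries and did not pass. The lipase genes Pnpla2 (0.33, adjusted p 0.45) and Lipe (-0.33, adjusted p 0.409) had opposite signs. Mstn, which encodes myostatin, was at no more than 0.61 FPKM in any library. The median of the list was -0.05.

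The FoxO and fasting list, chosen with earlier results of these data known, held 16 tested genes. Of these, 5 passed, all higher in KO, where 1.21% of all tested genes did. The fold change was above 0 in 14 of 16, against 51.6% of all tested genes. The median was 0.71, against 0.01 over all tested genes. Klf15, a transcription factor gene induced by fasting and glucocorticoids, rose from 2.56, 4.71 and 2.57 FPKM to 15.65, 11.19 and 40.63 FPKM (by limma, a log2 fold change of 2.29, SE 0.41, adjusted p 0.0337). Per1, a clock gene that glucocorticoids induce, rose from 19.43, 25.04 and 21.96 FPKM to 51.17, 42.41 and 58.61 FPKM (1.16, SE 0.17, adjusted p 0.0183). Tsc22d3, which encodes the glucocorticoid-induced leucine zipper protein, rose from 31.28, 31.75 and 27.53 FPKM to 53.45, 59.48 and 82.18 FPKM (1.06, SE 0.18, adjusted p 0.0304). Fbxo32, a ubiquitin ligase gene of muscle wasting and a FoxO target, rose from 1.25, 1.14 and 0.89 FPKM to 2.49, 2.61 and 3.58 FPKM (0.89, SE 0.16, adjusted p 0.0386). Sesn1, a stress-response gene, also passed (1.09, SE 0.21, adjusted p 0.0391). In each of these 5 genes KO replicate 3 was the highest library.

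KO replicate 3 was also high in members of this list that did not pass. Pdk4, which spares glucose in fasting, lay at 784.9 FPKM there and at 203.71 to 288.28 FPKM in the other 5 libraries (by limma, a log2 fold change of 0.34, adjusted p 0.731). Trim63 lay at 4.45 FPKM in KO replicate 3 and at 0.41 to 1.02 FPKM elsewhere. Angptl4 and Txnip were likewise highest in KO replicate 3, at 304.76 and 1260.71 FPKM. In KO replicates 1 and 2, however, Angptl4 (97.74 and 125.7 FPKM) lay below every WT library (159.36 to 221.27 FPKM). Pdk4 (203.71 and 216.25 FPKM) also lay below every WT library there (222.47 to 288.28 FPKM). Txnip was below the WT range (590.75 to 639.37 FPKM) in KO replicate 1 (473.83 FPKM) and above it in KO replicate 2 (817.03 FPKM). The list's mean deviation was -0.43 to -0.28 in the WT libraries, 0.02 and 0.04 in KO replicates 1 and 2, and 0.97 in KO replicate 3, the library in which Irf4 was also highest. KO replicates 1 and 2 were close in this measure, unlike in Irf4, and in Klf15, Per1 and Sesn1 KO replicate 1 was above KO replicate 2. Cdkn1b and Fkbp5 were highest in KO replicate 1 (21.72 and 40.46 FPKM), and Gadd45a was highest in WT replicate 3 (11.94 FPKM). Without KO replicate 3, the median of the list was 0.48, and of its genes Klf15 and Per1 passed.

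**Figure D5:**
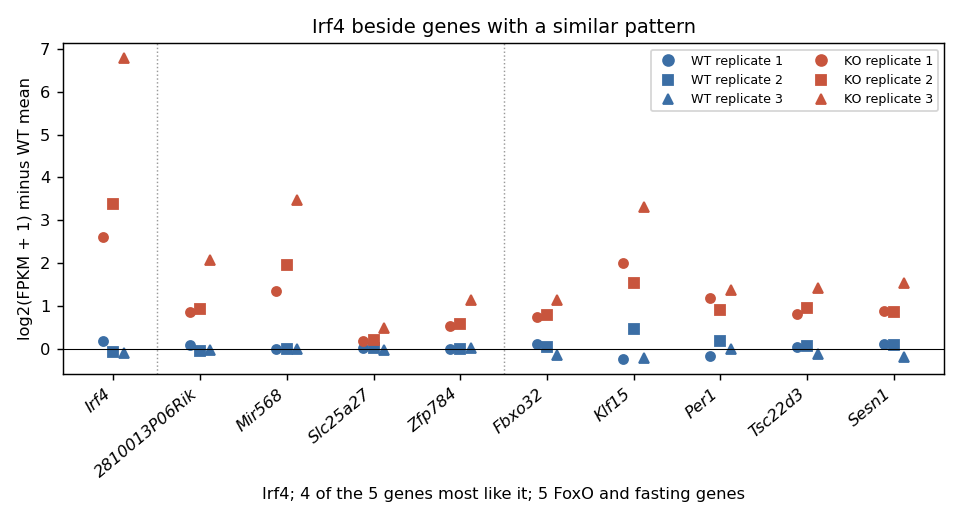
Log2(FPKM + 1) in each library, minus the mean of the WT libraries, for Irf4, 4 of the 5 genes whose pattern was most like it, and the 5 FoxO and fasting genes past the threshold, with WT in blue and KO in red. KO replicate 3 (red triangle) is the highest library for all 10 genes, and the range is widest for Irf4. For the 4 genes chosen by likeness to Irf4, a high KO replicate 3 follows largely from that choice.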

How the data were processed

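RNA-seq libraries of newborn interscapular brown fat, 3 WT and 3 KO, were grouped by their titles. The values deposited by the authors are FPKM per gene, per the file headers, and are given to 2 decimals. The submitters' processing notes name mm10, HISAT2 2.0.4, Bowtie2 2.2.5 and DESeq2, with no role; the counter, annotation and strand handling are not given in the sources used here. FPKM are not counts, so no count model was fitted. Log2(FPKM + 1) of the 13331 genes whose mean reached 0.5 FPKM was fitted with limma 3.58.1 in R 4.3.3 (eBayes with an intensity trend, no covariates, two-sided), with Benjamini-Hochberg adjustment over all of them and a threshold of 0.05. The + 1 understates changes of low genes. On simulated data with 200 of 13331 genes changed by 1.5 on the log2 scale, the fit recovered 181 and called 10 unchanged genes. The simulated noise was normal with the same spread in both groups, unlike Irf4 (log2 SD 0.17 in WT and 2.22 in KO). Smaller changes were not simulated, so this recovery does not apply to them.

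The members, the 8 pathway lists and the 10 marker lists were chosen with earlier results of these data known. From each pathway list the genes past the threshold are named (up to 4 by smallest p, or the 3 smallest p where none passed), with the genes most like Irf4 and Irf7; Sesn1, the other list members named, and the marker genes were added after their values were seen. Depth was estimated from the steps between low FPKM of single-transcript genes of 500 to 1300 nt, on GENCODE vM21 lengths less 50 nt: 77.2% to 81.7% of the values used lay within 0.2 of a whole read, against 45.1% to 47.7% with shuffled lengths. This did not give whole reads for the table, so no count test was run. Promoter windows and gene bounds came from RefSeq (GRCm38.p6). The alternatives tried were a pseudocount of 0.1 or 0.01, leaving the filter out or raising it to 5 FPKM, 3 other scalings, eBayes without the trend or robust, the replicate block, and leaving out each library. A few genes that this rule names or that the lists hold are not reported here.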

Additional observations from a re-analysis of the deposited data

How the results depend on the processing

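The 8 Irf fold changes kept their signs in every alternative that could be fitted, with Irf4 between 2.99 (without KO replicate 3) and 5.33 (pseudocount 0.01), which for Irf4, whose groups do not overlap and which the family was selected on, is no sign of stability. Of the 16 alternatives, 9 left no member past the threshold: without the filter, with quantile normalization, with a common sum, with median-of-ratios scaling and with robust eBayes 0 members passed, and leaving out 1 library gave 0 to 1, with 0 without WT replicate 1, 2 or 3 or without KO replicate 2. With no filter 35 genes of the whole table and 1 pathway gene passed, against 295 and 10, and with a common sum 191 and 6. Leaving out 1 library gave 31 to 370 genes of the whole table and 0 to 11 pathway genes. Without the filter more genes are tested; for the other settings the cause was not tested. The all-gene median shifted by less than 0.1 under each scaling.

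WT and KO share replicate numbers, but the deviations of same-numbered libraries correlated at only 0.068, 0.043 and 0.043, and pairing by number was therefore not assumed. With the replicate block 167 genes, 7 pathway genes and 1 Irf member (Irf4) passed; each library correlated best with the library of its own number. Depth limits Irf8 most, at an estimated 30.4 to 62.5 reads per library, and Irf4 in WT, where the lowest library held 48.8.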
